A study of Homo sapiens with 24 samples.

Results

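The untreated transcriptomes of BT549 and MDAMB436, a pair of human breast cancer cell lines, were compared across all genes. The members were chosen by label alone: 2 libraries of BT549 cells and 2 of MDAMB436 cells, each kept for 5 days in the DMSO vehicle, out of 24 libraries in all. The series tests EPZ015666, which blocks the arginine methyltransferase PRMT5, at 5 µM against DMSO, and it also holds 2 ovarian lines. Stranded sequencing of poly(A) RNA was used. Libraries of each line are named A and B. Whether these stem from different cultures is not stated in the labels, and the p-values therefore rest on a spread that may be technical. Each line was prepared as its own libraries, so the line and any handling of its libraries cannot be told apart. Reads recovered from the deposited values summed to 26.68 M and 25.64 M in BT549 and to 29.24 M and 27.52 M in MDAMB436. The median chi-square per gene between the A and B libraries was 2.46 times that of counting error in BT549 and 3.26 times in MDAMB436. Whether A and B are repeats of the same library was not tested. Ribosomal RNA made up 0.0902% to 0.107% of the reads of the 4 libraries, and the 10 most abundant genes 5.25% to 5.84%.

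Both lines are known as triple-negative breast cancer lines with a mesenchymal appearance. Such lines have lost much of the gene programme of breast epithelium, the keratins, adhesion molecules and tight junctions that hold a sheet of cells together. They use parts of the programme of connective tissue instead, with vimentin filaments, contractile actin and secreted matrix. Signals of the TGF-beta and BMP family take part in that switch: BMP ligands act through SMAD1 and SMAD5 on the ID genes, whose proteins block the DNA binding of other helix-loop-helix factors, and TGF-beta acts through SMAD2 and SMAD3.

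Levels are deposited RPKM, reads scaled to gene length and to a total that the authors used for each library. Recovered reads summed to 106.66% and 106.69% of that total in BT549, and to 96.09% and 96.44% in MDAMB436. The length of a gene is its whole span, introns included. Long genes therefore have low values, and levels are compared between lines, not between genes. Differences are log2(RPKM + 1) of BT549 minus MDAMB436 ± SE, tested with limma over 6424 genes with a mean of at least 1 RPKM in the 4 libraries. At an adjusted p under 0.05, 5478 genes (85.3%) differed, with 2866 (44.6%) higher and 2612 (40.7%) lower in BT549. Of these, 1355 (21.1%) also differed at least 2-fold on that scale, 790 (12.3%) higher and 565 (8.8%) lower. With nearly every gene past the threshold, a call alone says little about a gene, and the counts below are read against these shares. The median difference over all genes tested was 0.04. Scaling each library to its recovered read total in place of the authors' total moved that median by -0.123 and turned the split of the 2-fold calls to 649 higher and 741 lower. Fitted to the recovered reads with limma-voom, 12242 genes could be tested, of which 10449 (85.4%) differed, 5243 (42.8%) higher and 5206 (42.5%) lower in BT549, and 4839 (39.5%) at 2-fold. That fit is given for long genes that the RPKM filter leaves out.

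Of the 25 markers of cell type that were set down, 16 were in the table. Those of mesenchymal state were on in both lines, and more so in BT549 for most. VIM, the gene of the intermediate filament vimentin, had 122 and 119 RPKM in BT549, against 43.7 and 44.5 RPKM in MDAMB436 (difference 1.43 ± 0.05, limma adjusted p = 6.42e-09). EPCAM, an adhesion molecule of epithelium, had at most 1 read per library in BT549 and 80 and 76 reads in MDAMB436, and PGR, the progesterone receptor gene, had 0 reads in BT549 and 2 per library in MDAMB436. ERBB2, a receptor gene measured in breast tumours, had 3.74 and 3.98 RPKM in BT549, against 1.76 and 1.72 RPKM in MDAMB436. Endothelial PECAM1 and CDH5 had 0 to 7 reads in each library.

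The genes with the largest differences were taken from those that passed and did not overlap between the lines. Their separation was therefore set by that choice. The 12 that were higher in BT549 held matrix genes (SPARC, COL3A1, COL1A2, COL1A1, MFAP2, TGFBI), the DNA-binding inhibitor ID3, the gap junction gene GJA1, the surface glycoprotein gene CD24, the growth arrest gene GAS1, PLPPR3 and INAFM1. Those that were lower included the cancer-testis antigen gene MAGEA4, the imprinted genes NDN and PHLDA2, S100A16, BEX3, C1QTNF4, the adrenergic receptor gene ADRA2C, the mitochondrial tRNA gene MT-TL1, TNFAIP2, the cytokine gene IL32 and GSPT2. Reads of CD24 and MAGEA4 may be shared with their near-identical copies.

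**Figure D1:**
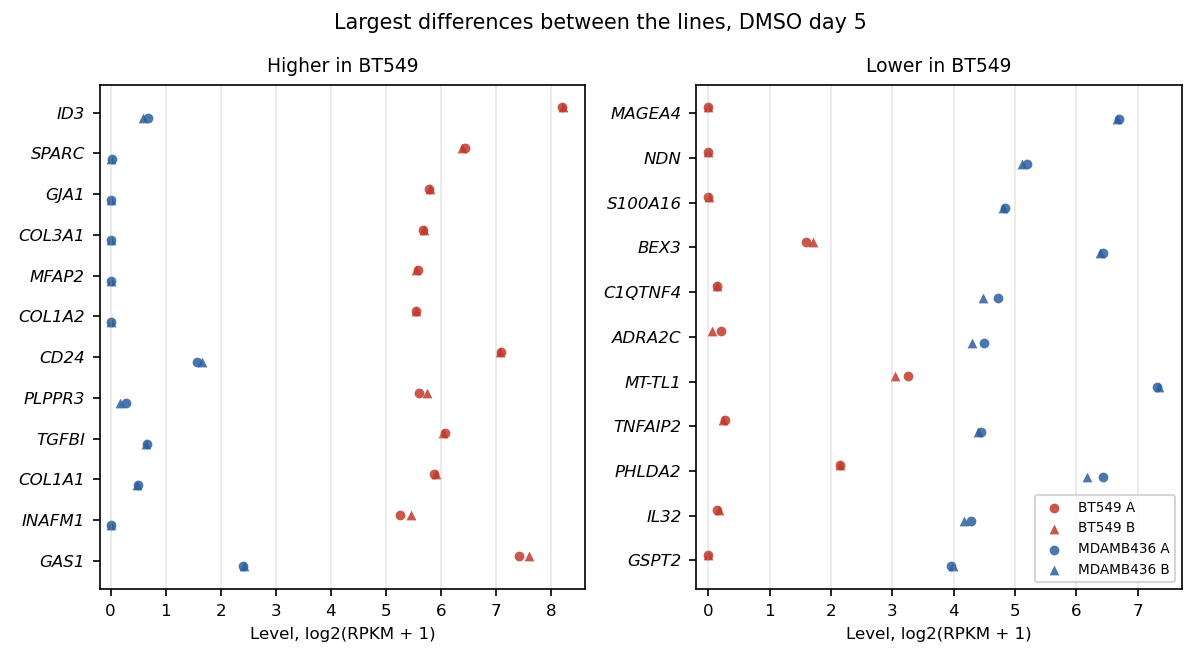
Level of each gene as log2(RPKM + 1) on the horizontal axis, for genes of the largest differences in each direction. Each point is 1 library, with circles for A and triangles for B; the points of a line lie close together, and ID3 stands above 8 in BT549 and below 1 in MDAMB436.

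The ID genes gave some of the largest differences, all 4 in the same direction. ID3 had 292 and 296 RPKM in BT549, against 0.595 and 0.504 RPKM in MDAMB436. The level in BT549 was 534-fold that in MDAMB436 by the means ( difference 7.57 ± 0.08, limma adjusted p = 3.49e-12). ID1 had 423 and 414 RPKM in BT549, against 15.6 and 13.6 RPKM in MDAMB436 (28.7-fold, difference 4.76 ± 0.07). ID2 had 39.4 and 38.1 RPKM in BT549, against 0.697 and 0.593 RPKM in MDAMB436. ID4 had 14.1 and 15.5 RPKM in BT549 and no read in MDAMB436, which is at least 480-fold higher in BT549 against a floor of 3 reads per library. For all 4 genes both BT549 libraries lay above both MDAMB436 libraries, as for 48.4% of all genes tested; in 44.3% both lay below.

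The 4 ID genes lie on different chromosomes. Their promoters are shown because all 4 genes were higher in BT549; each is the 250 bases before the start in RefSeq (build GRCh38.p14), 5′ to 3′ on the gene's strand. The windows are chr20:31605039-31605288 (plus strand), chr2:8681806-8682055 (plus), chr1:23559502-23559751 (minus) and chr6:19837120-19837369 (plus). Capitals mark TATAAA and CCAAT, each searched on both strands.
ID1 promoter: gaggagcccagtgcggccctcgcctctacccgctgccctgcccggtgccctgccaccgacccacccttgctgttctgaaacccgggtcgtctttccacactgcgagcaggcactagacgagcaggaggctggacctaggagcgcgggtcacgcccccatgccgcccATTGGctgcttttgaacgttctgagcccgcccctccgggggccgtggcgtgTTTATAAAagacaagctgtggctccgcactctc
ID2 promoter: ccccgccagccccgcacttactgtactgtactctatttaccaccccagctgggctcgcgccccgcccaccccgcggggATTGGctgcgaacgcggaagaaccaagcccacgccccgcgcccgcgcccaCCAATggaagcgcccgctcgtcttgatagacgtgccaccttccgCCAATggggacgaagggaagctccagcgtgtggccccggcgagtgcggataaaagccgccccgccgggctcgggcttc
ID3 promoter: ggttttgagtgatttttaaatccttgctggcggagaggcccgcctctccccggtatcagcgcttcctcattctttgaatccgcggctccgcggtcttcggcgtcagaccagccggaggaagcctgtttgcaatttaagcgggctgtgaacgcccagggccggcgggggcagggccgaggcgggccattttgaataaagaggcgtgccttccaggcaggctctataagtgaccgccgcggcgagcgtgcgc
ID4 promoter: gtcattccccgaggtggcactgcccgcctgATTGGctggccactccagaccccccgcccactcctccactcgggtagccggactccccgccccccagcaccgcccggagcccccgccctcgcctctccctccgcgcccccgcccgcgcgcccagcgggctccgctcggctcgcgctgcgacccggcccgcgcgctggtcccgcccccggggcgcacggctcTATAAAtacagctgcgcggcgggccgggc
TATAAA was found in the windows of ID1, where it overlaps its own reverse complement, and of ID4, in 11.1% of all 27305 RefSeq promoter windows of this length and in 4.5% of the 4587 windows of genes tested here. CCAAT was found in those of ID1, ID2 and ID4, in 33% of all windows and in 36.9% of those of tested genes. GGCGCC, a motif bound by SMAD1 and SMAD5 in BMP target genes, was also searched on both strands and was in none of the 4 windows, against 16.1% of all and 27.9% of those of tested genes. No match means only that these letters are not in this window. The windows held 19, 29, 24 and 34 CG dinucleotides for ID1, ID2, ID3 and ID4. The median was 22 over the windows of tested genes and 11 over all windows.

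Beside the ID genes the TGF-beta and BMP list held members in both directions, more of them higher in BT549. Of all 26 members 11 passed the RPKM filter, 9 higher and 2 lower, and 4 of the 9 are the ID genes. Without ID1 to ID4, 7 of 22 were tested, 5 higher (4 at 2-fold) and 2 lower, with a median difference of 1.16 against 0.04 over all genes. By the recovered reads 14 of these 22 were higher and 7 lower. Among receptors, TGFBR1, which signals for TGF-beta, had 2.54 and 2.83 RPKM in BT549, against 0.563 and 0.619 RPKM in MDAMB436 (difference 1.21, limma adjusted p = 5.77e-08). Among inhibitors of the pathway, the BMP antagonist NOG had 4.35 and 4.33 RPKM in BT549, against 0.295 and 0.148 RPKM in MDAMB436, and the decoy receptor gene BAMBI had 8.07 and 8.27 RPKM in BT549, against 3.09 and 2.97 RPKM in MDAMB436. GREM1, another BMP antagonist, went the other way, with 6 and 8 reads in BT549, against 1048 and 858 reads in MDAMB436.

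The SMAD genes, which carry the signal into the nucleus, differed in opposite directions. SMAD3, of the TGF-beta branch, had 0.585 and 0.582 RPKM in BT549, against 1.95 and 2 RPKM in MDAMB436 (difference -0.91, limma adjusted p = 1.89e-09). SMAD6, an inhibitory SMAD and itself a BMP target, had 0.789 and 0.822 RPKM in BT549, against 0.0632 and 0.0578 RPKM in MDAMB436 (limma-voom difference 3.73, adjusted p = 1.67e-14). SMAD4, the partner shared by both branches, had 1.06 and 1.16 RPKM in BT549, against 0.202 and 0.253 RPKM in MDAMB436 (limma-voom difference 2.30, adjusted p = 1.96e-14). In all 3 the libraries of the lines did not overlap, as for 48.4% of all genes tested (higher) and 44.3% (lower).

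TGFBI and CTGF, which TGF-beta induces, were higher in BT549; other targets of that branch are not described here. TGFBI, a matrix protein gene named for its induction by TGF-beta, had 66.4 and 64.8 RPKM in BT549, against 0.585 and 0.565 RPKM in MDAMB436 (114-fold, difference 5.40 ± 0.04). CTGF, a further secreted factor gene that TGF-beta induces, had 64.7 and 68.6 RPKM in BT549, against 5.6 and 5.17 RPKM in MDAMB436.

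**Figure D2:**
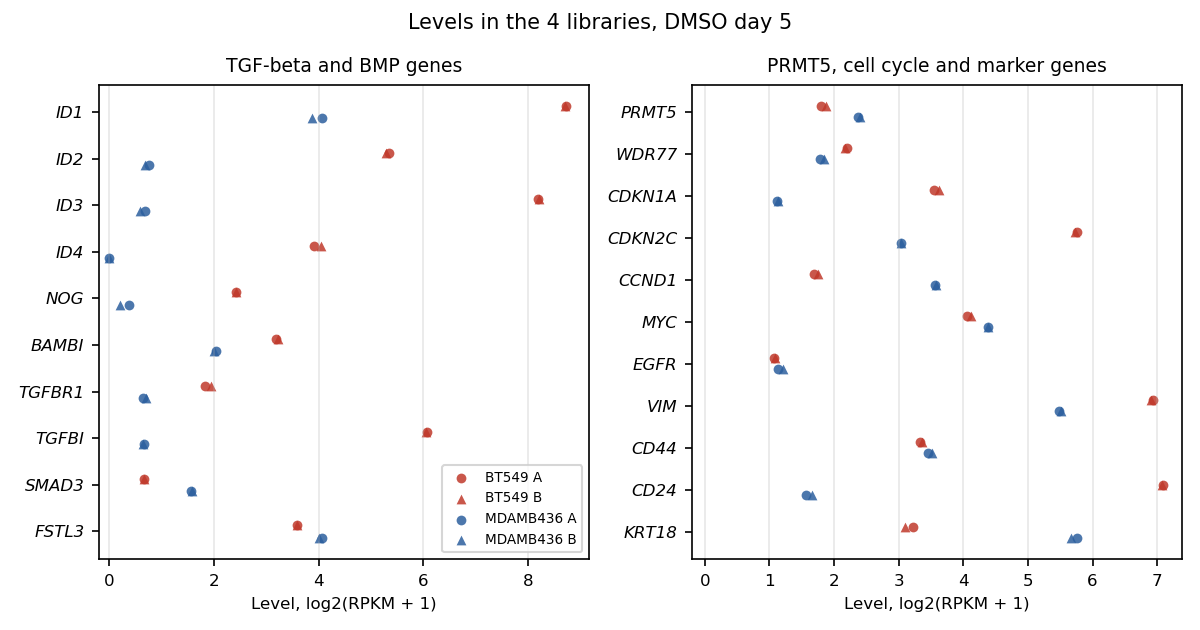
Level as log2(RPKM + 1) in each of the 4 libraries, for genes of the TGF-beta and BMP pathway (left) and for PRMT5, cell cycle and marker genes (right). Circles are A libraries and triangles B libraries; ID1 to ID4 lie to the right in BT549, and SMAD3, CCND1 and KRT18 lie to the right in MDAMB436.

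BT549 carried a far larger load of RNA of collagen types I and III. Of 18 collagen genes of any type in the table, 14 were tested. Of these, 11 were higher at 2-fold and 3 lower, 2 of them at 2-fold (median difference 2.11). By the recovered reads 14 of 18 were higher and 4 lower. COL1A1, a chain of type I collagen, had 57.9 and 59 RPKM in BT549, against 0.421 and 0.403 RPKM in MDAMB436 (142-fold, difference 5.40 ± 0.06, limma adjusted p = 4.68e-12). COL1A2, its partner chain, had 46 and 45.8 RPKM in BT549 and no read in MDAMB436, at least 16600-fold higher in BT549. COL3A1, of type III collagen, had 48117 and 46593 reads in BT549, against 2 and 1 reads in MDAMB436.

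The genes of other collagen types that are described here differed less or the other way. COL6A1, of the beaded filaments of type VI collagen, had 41.6 and 43 RPKM in BT549, against 8.17 and 7.55 RPKM in MDAMB436. COL5A1, of type V collagen, had 10.2 and 10.5 RPKM in BT549, against 1.93 and 1.97 RPKM in MDAMB436. COL7A1, of the anchoring fibrils under epithelium, had 0.103 and 0.112 RPKM in BT549, against 2.21 and 2.02 RPKM in MDAMB436 (difference -1.49, limma adjusted p = 4.74e-10). COL16A1 was lower in BT549 as well, with 0.333 and 0.316 RPKM in BT549, against 2.43 and 2.35 RPKM in MDAMB436.

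Matrix glycoproteins and the enzymes that mature or cut the matrix followed the collagens. Of 30 glycoprotein and proteoglycan genes in the table, 14 were tested, 11 higher at 2-fold and 3 lower (median 1.87), and by the recovered reads 18 of 27 were higher and 9 lower. SPARC, a collagen-binding glycoprotein gene, had 86.1 and 82.7 RPKM in BT549, against 0.0139 and 0.0121 RPKM in MDAMB436, which rest on 11 and 9 reads (difference 6.40 ± 0.04). FN1, the fibronectin gene, had 4.90 and 4.97 RPKM in BT549, against 0.400 and 0.457 RPKM in MDAMB436. LOX, a collagen crosslinking enzyme gene, had 13.5 and 15.3 RPKM in BT549, against 0.0412 and 0.0439 RPKM in MDAMB436 (difference 3.88, limma adjusted p = 5.02e-10). The syndecan genes were split: SDC4 had 17.5 and 16.9 RPKM in BT549, against 4.53 and 4.73 RPKM in MDAMB436, and SDC1 had 2.85 and 3.06 RPKM in BT549, against 8.25 and 8.10 RPKM in MDAMB436.

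Of 22 protease and inhibitor genes in the table, 10 were tested, 9 higher, 7 of them at 2-fold, and 1 lower (median 1.11). MMP14, a membrane-bound collagenase gene, had 27.6 and 29.1 RPKM in BT549, against 0.451 and 0.396 RPKM in MDAMB436 (difference 4.36, limma adjusted p = 1.19e-12). CTSB, a lysosomal cysteine protease gene, had 175 and 171.8 RPKM in BT549, against 28.7 and 28.5 RPKM in MDAMB436. Of 12 tested genes of drug transport and the lysosome, 9 were higher and 2 lower (6 and 1 at 2-fold). By the recovered reads 11 of the 22 in the table were higher and 9 lower (median 0.22). The transporter genes ABCC3, ABCC4, ABCC5, ABCG2, ABCA3 and SLC22A18 did not pass the RPKM filter. By the recovered reads ABCC5 was higher in BT549 and the others of these were lower. LAMP2, a lysosomal membrane protein gene, had 19.5 and 20.2 RPKM in BT549, against 4.99 and 5.25 RPKM in MDAMB436.

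Markers of stromal fibroblasts were checked beside the collagens, since those genes are also made by fibroblasts. The summed level of the 8 fibroblast markers in the table was 155.2 and 156.3 RPKM in BT549, against 0.441 and 0.422 RPKM in MDAMB436, nearly all of it from COL1A1, COL1A2 and COL3A1. By the recovered reads 5 of the 8 could be tested, and all 5 were higher in BT549 at 2-fold. The other 3 were at or near 0: TCF21 had no read in either line, LUM had 5 and 3 reads in BT549, against 1 and 0 in MDAMB436, and MFAP5 had 12 and 10 reads in BT549, against 0 in both libraries of MDAMB436. PDGFRB, a growth factor receptor gene of fibroblasts, had 69 and 57 reads in BT549, against 18 and 22 in MDAMB436. POSTN, a matrix protein gene of fibroblasts, had 1051 and 852 reads in BT549, against 1 and 0 in MDAMB436. The part of other cells in the collagen result was not tested.

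**Figure D3:**
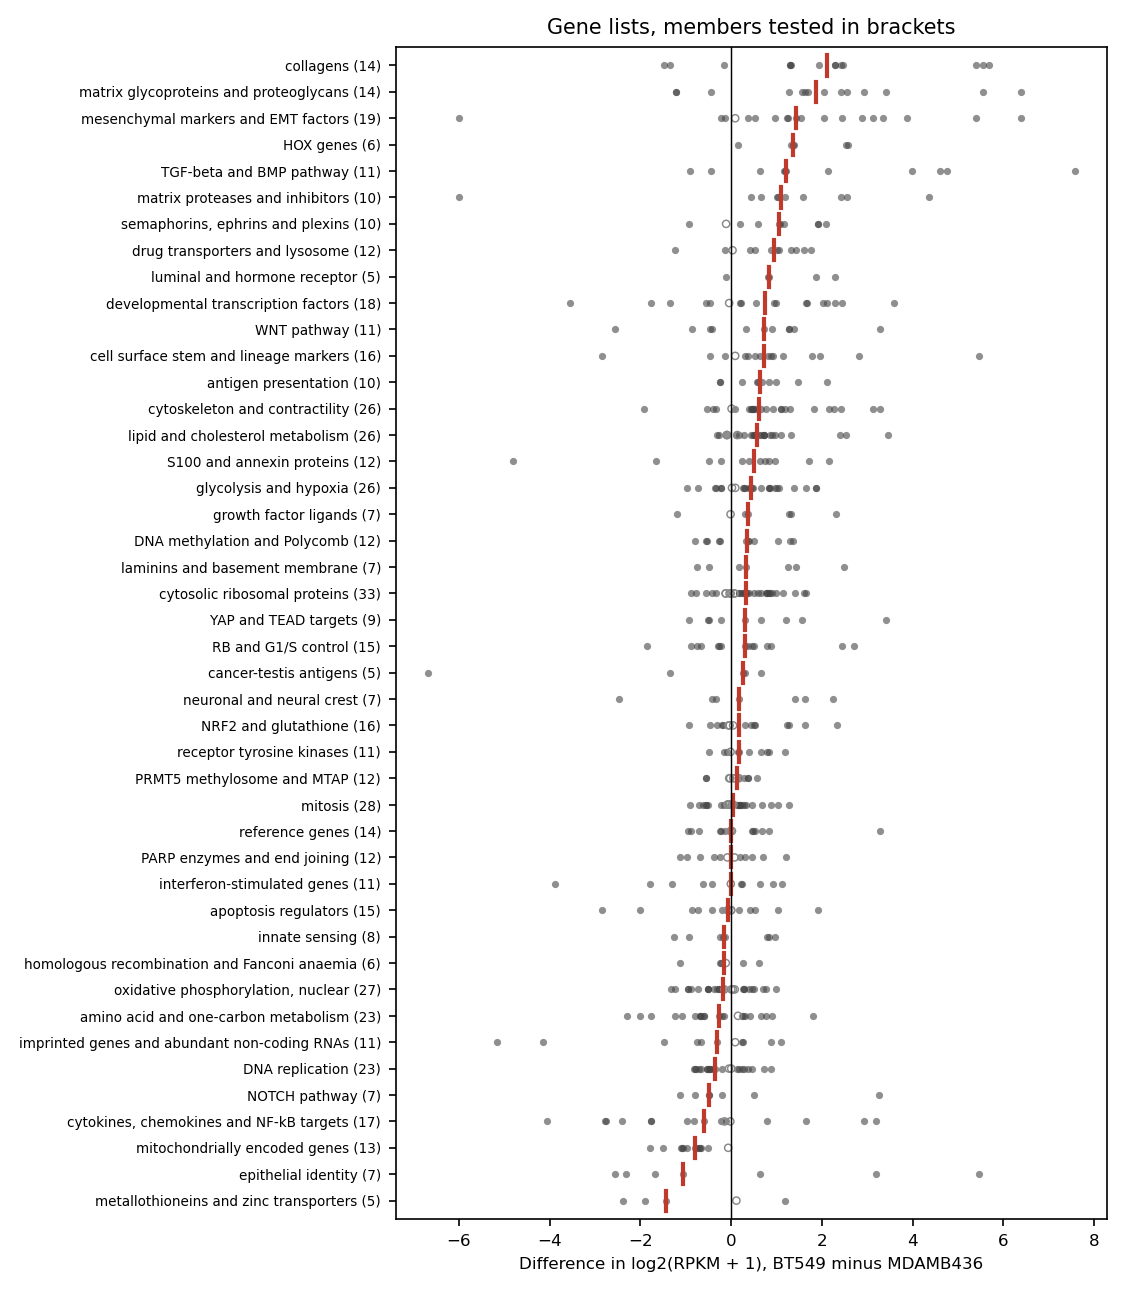
Difference in log2(RPKM + 1), BT549 minus MDAMB436, of each tested member of gene lists with at least 5 tested members (number in brackets). Filled points passed an adjusted p of 0.05, open points did not, and the red bar is the list median, from 2.11 for collagens to -1.44 for metallothioneins and zinc transporters.

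Transcription factors and effectors of mesenchymal state were mostly higher in BT549. Of 26 genes on that list in the table, 19 were tested, 15 higher (12 at 2-fold), 3 lower and 1 not past the threshold (median 1.43). SNAI2, a repressor of epithelial genes, had 13.2 and 12.6 RPKM in BT549, against 0.358 and 0.364 RPKM in MDAMB436 (difference 3.35, limma adjusted p = 6.09e-12). TWIST1, a helix-loop-helix factor of mesoderm, had 2.03 and 2.23 RPKM in BT549, against 0.323 and 0.297 RPKM in MDAMB436. ZEB1, a repressor of epithelial adhesion genes with a long span, had 2038 and 1852 reads in BT549, against 971 and 1058 reads in MDAMB436 (limma-voom difference 1.21). CDH2, the N-cadherin gene, was lower in BT549, with 1967 and 1780 reads, against 4487 and 4482 reads in MDAMB436 (limma-voom difference -0.995, adjusted p = 2.24e-12).

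Genes of the cytoskeleton and of contractility, as 1 list, mostly showed the same direction. Of 28 in the table, 26 were tested, 21 higher and 4 lower, with 10 higher and 1 lower at 2-fold (median 0.61). ACTG1, a cytoplasmic actin gene, had 465 and 479.6 RPKM in BT549, against 99.2 and 96.4 RPKM in MDAMB436. TPM2, a tropomyosin gene, had 174 and 171.8 RPKM in BT549, against 17.3 and 16.7 RPKM in MDAMB436. FLNC, a muscle filamin gene, was lower in BT549, with 0.672 and 0.701 RPKM, against 5.34 and 5.50 RPKM in MDAMB436 (difference -1.93).

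Epithelial genes were lower in BT549 for most members. Of 23 on that list in the table, 7 were tested, 3 higher and 4 lower in BT549 (2 and 4 at 2-fold, median -1.07), and by the recovered reads 3 of 14 were higher and 11 lower. KRT18, a keratin of simple epithelium, had 8.32 and 7.52 RPKM in BT549, against 53.1 and 49.7 RPKM in MDAMB436 (difference -2.56 ± 0.07, limma adjusted p = 1.66e-09). KRT8, its partner, had 47 and 53 reads in BT549, against 1813 and 1657 reads in MDAMB436; the annotated spans of KRT8 and KRT18 overlap on opposite strands, and whether the counting used strand is not given in the sources used here. CLDN3, of tight junctions, had 0.345 and 0.359 RPKM in BT549, against 5.93 and 5.64 RPKM in MDAMB436. DSP, the desmoplakin gene, had 224 and 210 reads in BT549, against 1709 and 1782 reads in MDAMB436.

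The 3 tested epithelial genes that were higher in BT549 were CD24 and MUC1, both of surface glycoproteins, and JUP. JUP, which encodes the junction protein plakoglobin, had 1.99 and 2.09 RPKM in BT549, against 0.978 and 0.954 RPKM in MDAMB436 (difference 0.63, limma adjusted p = 1.07e-05). CD24 had 134.7 and 134 RPKM in BT549, against 1.97 and 2.16 RPKM in MDAMB436 (65-fold, difference 5.47 ± 0.06). MUC1 had 13.7 and 16.8 RPKM in BT549, against 0.792 and 0.736 RPKM in MDAMB436 (difference 3.20, limma adjusted p = 4.95e-08). CD44, often read beside CD24 as a marker of stem-like cells, was nearly level, with 9.07 and 9.26 RPKM in BT549, against 9.91 and 10.5 RPKM in MDAMB436 (difference -0.14 ± 0.04, limma adjusted p = 0.0115). That call was lost without library A of BT549 (adjusted p = 0.0649) or library B of MDAMB436 (adjusted p = 0.0908).

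Luminal factors differed in both directions. GATA3, a luminal transcription factor gene, had 4.21 and 4.22 RPKM in BT549, against 0.065 and 0.0529 RPKM in MDAMB436 (difference 2.30, limma adjusted p = 5.91e-11). FOXA1, a luminal pioneer factor gene, was seen in MDAMB436 only, with a mean of 1.67 RPKM and at most 1 read per BT549 library. Of 14 luminal genes in the table, 5 were tested, 4 higher and 1 lower.

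Factors that set position and tissue in development also separated the lines. Of 20 HOX genes in the table, 6 were tested, all higher in BT549 and 5 at 2-fold, and by the recovered reads 11 of 15 were higher and 4 lower. HOXB2 had 5.06 and 5.55 RPKM in BT549, against 0.0401 and 0.0599 RPKM in MDAMB436. HOXC12 had 4.45 and 5.05 RPKM in BT549 and no read in MDAMB436. Among other developmental factors 12 of 18 tested genes were higher and 5 lower (median 0.746). By the recovered reads 19 of 35 were higher and 14 lower (median 0.39). SIX2 differed by 3.59 and NR2F2, an orphan nuclear receptor gene, by 2.12. MSX1, a homeobox gene, differed by -3.55 with 0.618 and 0.964 RPKM in BT549, against 20.5 and 19.3 RPKM in MDAMB436.

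Interleukins and targets of NF-kB were higher in MDAMB436 for most members. Of 30 cytokine, chemokine and NF-kB genes in the table, 17 were tested, 4 higher and 11 lower in BT549 (3 and 6 at 2-fold, median -0.60), and by the recovered reads 5 of 24 were higher and 16 lower. IL1B, an inflammatory interleukin gene, had 0 and 1 reads in BT549, against 1323 and 1181 reads in MDAMB436. IL1A, encoding the other agonist of the interleukin-1 receptor, had 0 and 0.0039 RPKM in BT549, against 4.16 and 4.39 RPKM in MDAMB436. IL32, a cytokine gene induced by NF-kB, had 0.107 and 0.128 RPKM in BT549, against 18.4 and 17 RPKM in MDAMB436 (151-fold higher in MDAMB436, difference -4.06 ± 0.04, limma adjusted p = 3.49e-12). LIF, of the interleukin-6 family, had 1.28 and 1.03 RPKM in BT549, against 14.3 and 13 RPKM in MDAMB436.

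The NF-kB feedback genes went with them. TNFAIP3, which encodes the inhibitor A20, had 0.538 and 0.604 RPKM in BT549, against 4.33 and 4.37 RPKM in MDAMB436 (difference -1.77, limma adjusted p = 1.66e-09). RELB, a subunit of NF-kB, differed by -0.96, NFKB2 by -0.82 and NFKBIA by -0.60. Chemokine genes differed in both directions. CXCL5 had 9.11 and 10.8 RPKM in BT549, against 0.209 and 0.179 RPKM in MDAMB436, and CXCL1 differed by 2.93 and CCL2 by 1.65. CXCL8, which encodes interleukin-8, had 0.996 and 0.674 RPKM in BT549, against 5.12 and 5.34 RPKM in MDAMB436 (difference -1.77, limma adjusted p = 3.03e-07), and CXCL16 differed by -0.11. CXCL2 had a difference of -0.02 and did not pass (limma adjusted p = 0.833). CD14, a monocyte receptor gene, had 0.871 and 0.822 RPKM in BT549, against 4.93 and 4.70 RPKM in MDAMB436, while CD8A, of T lymphocytes, had 0 to 36 reads in each library; a part of other cells in these values was not tested.

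Interferon-stimulated genes had no common direction among the 11 tested of 28 in the table, 5 higher and 5 lower (1 and 3 at 2-fold, median -0.01). By the recovered reads 11 of 27 were higher and 15 lower. BST2, which tethers virus particles, had 7.29 and 8.18 RPKM in BT549, against 133 and 124 RPKM in MDAMB436 (difference -3.89, limma adjusted p = 1.29e-10). The RNA sensor gene IFIH1 had 199 and 186 reads in BT549, against 1401 and 1430 reads in MDAMB436. MX2, an antiviral GTPase gene, had 760 and 699 reads in BT549, against 1 read in each library of MDAMB436. CGAS, the DNA sensor gene, had 0.454 and 0.378 RPKM in BT549, against 2.41 and 2.38 RPKM in MDAMB436.

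Antigen presentation leaned to BT549, with 8 of 10 tested genes higher and 2 lower out of 20 in the table (2 higher at 2-fold, median 0.64). HLA-E, a non-classical class I gene, had 69.4 and 69.8 RPKM in BT549, against 15.5 and 15.2 RPKM in MDAMB436 (difference 2.11, limma adjusted p = 2.95e-10). B2M, the light chain gene of class I, was slightly lower, with 172.8 and 163.3 RPKM in BT549, against 195.6 and 200.3 RPKM in MDAMB436 (difference -0.24, limma adjusted p = 0.04). Reads of class I HLA genes may be shared among them.

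The target of the drug in this series was itself unequal before treatment. PRMT5, which dimethylates arginines symmetrically, had 2.47 and 2.66 RPKM in BT549, against 4.15 and 4.26 RPKM in MDAMB436. Both BT549 libraries were lower, by 1.64-fold on the means (difference -0.55 ± 0.05, limma adjusted p = 5.67e-06). WDR77, its obligate partner MEP50, was higher in BT549, with 3.58 and 3.50 RPKM, against 2.44 and 2.59 RPKM in MDAMB436 (difference 0.37 ± 0.07, limma adjusted p = 0.000826). CLNS1A, the substrate adaptor pICln, had 4068 and 3634 reads in BT549, against 2264 and 2167 reads in MDAMB436 (limma-voom difference 1.06), and COPRS, a histone-directed adaptor, differed by 0.56. Of 12 tested members of that list, out of 16 in the table, 5 were higher and 2 lower, none at 2-fold, and its median of 0.12 turned to -0.01 under scaling to recovered read totals.

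Genes of RB and G1/S control had no common direction, with 8 higher and 7 lower of 15 tested (2 and 1 at 2-fold, 22 in the table), and the inhibitors among the genes described here differed in both directions. CDKN1A, which encodes the inhibitor p21, had 10.7 and 11.3 RPKM in BT549, against 1.17 and 1.20 RPKM in MDAMB436 (9.25-fold, difference 2.45 ± 0.06). CDKN2C, an inhibitor of CDK4 and CDK6, had 53 and 52.3 RPKM in BT549, against 7.21 RPKM in both libraries of MDAMB436. CDKN1C, another inhibitor of cyclin-dependent kinases, had 6.95 and 7.81 RPKM in BT549, against 12.8 and 13.5 RPKM in MDAMB436 (difference -0.76, limma adjusted p = 7.95e-05). CCND1, the cyclin D1 gene, had 2.23 and 2.37 RPKM in BT549, against 10.8 and 11 RPKM in MDAMB436 (4.73-fold higher in MDAMB436, difference -1.85 ± 0.06).

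Of 15 tested apoptosis regulators, out of 27 in the table, 5 were higher and 6 lower (2 each at 2-fold). PMAIP1, which encodes the death protein NOXA, had 1.23 and 1.22 RPKM in BT549, against 14.7 and 15.5 RPKM in MDAMB436 (difference -2.85). Outside that list GADD45A, a gene of the damage response, differed by -1.60, and MDM2, a ubiquitin ligase gene, had 0.699 and 0.666 RPKM in BT549, against 1.51 RPKM in both libraries of MDAMB436 (difference -0.58, limma adjusted p = 4.86e-07). BAX, a death effector gene, had a difference of 0.00 and did not pass (limma adjusted p = 0.973).

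Tumour suppressors with long spans could be read only through recovered reads. RB1, the retinoblastoma gene, had 797 and 791 reads in BT549, against 280 and 234 reads in MDAMB436 (limma-voom difference 1.89, adjusted p = 5.07e-13). BRCA1, of homologous recombination, had 1806 and 1657 reads in BT549, against 959 and 1014 reads in MDAMB436 (limma-voom difference 1.08, adjusted p = 5.86e-11). Of 26 genes of homologous recombination and Fanconi anaemia in the table, all were tested by reads, 5 higher and 14 lower, with ATM at 1.77 and XRCC2 at -1.46. MYC was close in level, with 15.6 and 16.3 RPKM in BT549, against 19.8 RPKM in both libraries of MDAMB436 (difference -0.29, limma adjusted p = 0.0034). EGFR differed by -0.09 with an adjusted p of 0.0443 in limma, with 1.11 and 1.13 RPKM in BT549, against 1.18 and 1.32 RPKM in MDAMB436. That call was lost in 9 of the alternatives, at adjusted p-values of 0.061 to 0.323, among them the fit without library B of MDAMB436 in DMSO, which gave a difference of -0.04.

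Metabolic genes split by pathway. Genes of lipid and cholesterol synthesis were higher in BT549 for 20 of 26 tested members and lower for 3, with 5 higher and none lower at 2-fold (33 in the table, median 0.58). SCD, the desaturase gene that makes monounsaturated fatty acids, had 413 and 396 RPKM in BT549, against 35.6 and 36.5 RPKM in MDAMB436 (difference 3.45, limma adjusted p = 4.96e-12). SREBF1, a transcription factor gene that drives fatty acid synthesis, had 30.6 and 32.8 RPKM in BT549, against 5.41 and 4.97 RPKM in MDAMB436. Genes of glycolysis and hypoxia were higher for 18 of 26 and lower for 6 (median 0.44), among them ENO1, the enolase gene, with 357 and 358 RPKM in BT549, against 99.9 and 94.1 RPKM in MDAMB436. HK1, a hexokinase gene, was lower, with 2.11 and 2.10 RPKM in BT549, against 5.04 and 5.10 RPKM in MDAMB436.

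Genes of amino acid and one-carbon metabolism leaned to MDAMB436, with 8 of 23 tested members higher and 14 lower in BT549 (1 and 5 at 2-fold, median -0.27). PHGDH, the first enzyme of serine synthesis, had 0.674 and 0.637 RPKM in BT549, against 7.33 and 6.97 RPKM in MDAMB436 (difference -2.30, limma adjusted p = 3.09e-11). MTHFD2, of mitochondrial folate metabolism, differed by -1.77, and SLC7A5, a transporter gene for large neutral amino acids, by -2.02. Genes of cytosolic ribosomal proteins were higher for 22 of 33 tested and lower for 5 (4 and none at 2-fold, median 0.32); many have processed pseudogenes, with which reads may be shared.

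Signals between cells differed in their inhibitors as well as in their receptors. In the WNT list 7 of 11 tested genes were higher and 4 lower (4 and 1 at 2-fold, median 0.73). By the recovered reads 14 of 25 were higher and 10 lower. DKK1, a secreted WNT inhibitor gene, had 4.33 and 5.15 RPKM in BT549, against 32.2 and 33.5 RPKM in MDAMB436, while SFRP1, another one, had 9.48 and 9.64 RPKM in BT549, against 0.0926 and 0.0936 RPKM in MDAMB436. The NOTCH receptor genes were on opposite sides: NOTCH3 had 10.1 and 11.9 RPKM in BT549, against 0.259 and 0.229 RPKM in MDAMB436, and NOTCH1 had 0.546 and 0.673 RPKM in BT549, against 2.57 and 2.45 RPKM in MDAMB436. Among 10 tested semaphorin, ephrin and plexin genes 8 were higher and 1 lower, and by the recovered reads 16 of 28 were higher and 8 lower. EFNB3, an ephrin ligand gene, had 11.6 and 12.4 RPKM in BT549, against 2.01 and 2.13 RPKM in MDAMB436.

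RNA from the mitochondrial genome was lower in BT549. Mitochondrial genes took 1.31% and 1.42% of the reads in BT549, against 2.51% and 2.5% in MDAMB436. Of the 13 protein-coding genes 12 were lower, 5 at 2-fold, and none higher (median -0.80). MT-ND1, of complex I, had 383 and 439 RPKM in BT549, against 1475 and 1378 RPKM in MDAMB436 (difference -1.80, limma adjusted p = 4.64e-08). MT-CYB, of complex III, had 782.8 and 911.8 RPKM in BT549, against 909.5 and 858.8 RPKM in MDAMB436 and did not pass (difference -0.07, limma adjusted p = 0.471). Nuclear genes of oxidative phosphorylation were 9 higher and 14 lower of 27 tested (median -0.18). Metallothionein and zinc transporter genes were 1 higher and 3 lower of 5 tested (median -1.44), and by the recovered reads 3 higher and 4 lower of 9, with a median of the opposite sign (0.12). MT1E, a metallothionein gene, had 3.90 and 3.94 RPKM in BT549, against 26 and 23.6 RPKM in MDAMB436, while MT2A had a difference of 0.12 that did not pass (limma adjusted p = 0.131). SLC39A14, a zinc importer gene, was higher, with 6.71 and 6.79 RPKM in BT549, against 2.37 and 2.48 RPKM in MDAMB436.

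Some genes were read in a single line. With at most 3 reads in each library of the other line and a mean of at least 1 RPKM, 53 of 16559 genes were seen in BT549 only, 28 of them protein-coding, and 97 in MDAMB436 only, 27 of them protein-coding. For 8 of these 150 genes, none protein-coding, the level lay under what 3 reads give in the other line, so that they are not shown to differ. In BT549 the highest protein-coding ones were GJA1, COL3A1, MFAP2, COL1A2, INAFM1, SFRP2, PNMA8A and ID4 by level. GJA1, which encodes the gap junction protein connexin 43, had 19044 and 18713 reads in BT549, against 3 and 1 in MDAMB436. SFRP2, a secreted WNT antagonist gene, had 5068 and 5269 reads in BT549, against 0 and 1 in MDAMB436. INAFM1 had 37.4 and 43 RPKM in BT549 and no read in MDAMB436, at least 495-fold higher in BT549.

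In MDAMB436 the leading protein-coding genes of this kind were MAGEA4, NDN, S100A16 and GSPT2. MAGEA4, a gene normally active in testis, had no read in BT549, against 102.5 and 100.6 RPKM in MDAMB436 (at least 10500-fold higher in MDAMB436). NDN, expressed from the paternal allele, had no read in BT549, against 35.8 and 33.7 RPKM in MDAMB436 (at least 550-fold). GSPT2, a translation termination factor gene on the X chromosome, had no read in BT549, against 14.5 and 14.9 RPKM in MDAMB436 (at least 336-fold). S100A16, a calcium-binding protein gene, had 0 and 1 reads in BT549, against 5252 and 4818 reads in MDAMB436. Mitochondrial tRNA genes made up 13 of the 97, and these are short, so that their RPKM rests on few reads.

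Neighbouring genes often differed in the same direction. In 214 windows of 10 Mb with at least 10 tested genes, the median difference was at least 0.5 in 23 windows and at most -0.5 in 32. By chromosome the median ran from -0.48 on chromosome 7 (60 genes higher, 192 lower) and -0.44 on chromosome 2 to 0.32 on chromosome 3 and 0.45 on chromosome 20 (141 higher, 45 lower). On chromosome 12 from 120 to 130 Mb, 38 of 41 genes were lower and 1 higher (median -0.86). On chromosome 20 from 40 to 50 Mb, 29 of 38 genes were higher, 19 at 2-fold, and 4 lower (median 0.93). Chromosome 8 was mixed, with a median of 0.93 from 20 to 30 Mb, where 26 of 34 genes were higher and 6 lower, and of -0.67 from 140 to 150 Mb, where 49 of 62 were lower and 5 higher. The cause of these stretches was not tested.

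**Figure D4:**
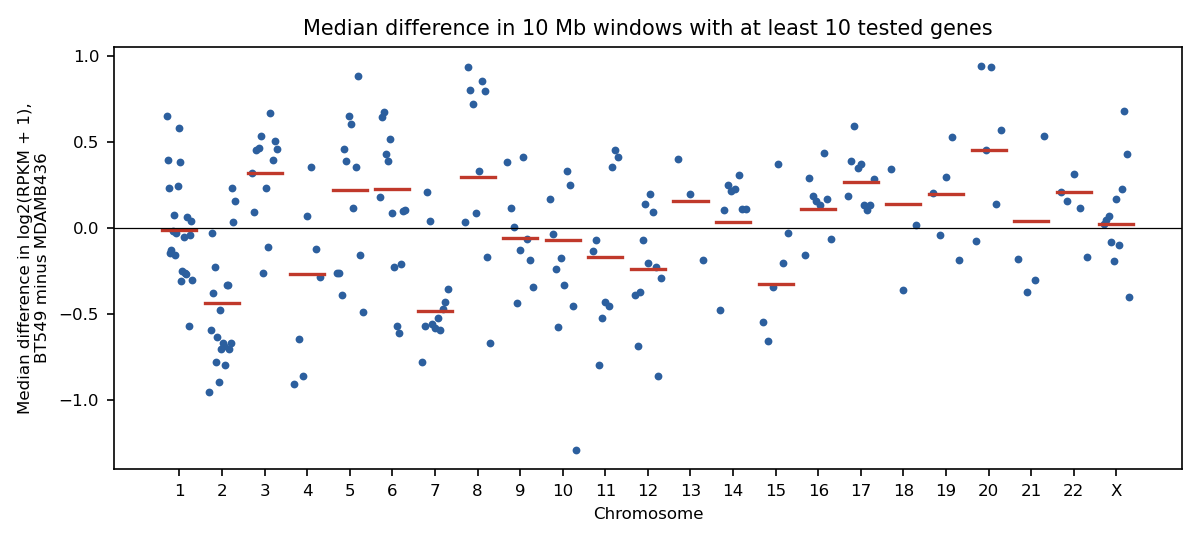
Median difference in log2(RPKM + 1), BT549 minus MDAMB436, of 10 Mb windows with at least 10 tested genes. Each point is a window, in order along its chromosome, and the red bar is the median of all tested genes of the chromosome, from -0.48 on chromosome 7 to 0.45 on chromosome 20.

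Libraries that the comparison does not use gave the same picture. BT549 and MDAMB436 cells given 5 µM EPZ015666 for 5 days were compared in a fit of their own 4 libraries. There 5571 of 6377 genes (87.4%) passed an adjusted p of 0.05 in limma, 45.1% higher and 42.2% lower in BT549, and 1258 (19.7%) at 2-fold, 10.9% higher and 8.88% lower. Of the 1355 genes called at 2-fold in DMSO, 1297 could be tested under drug, and 1293 (99.7%) passed with the same direction. Of all 5478 genes called in DMSO, 5254 could be tested, and 4773 (90.8%) passed with the same direction and 102 with the opposite. These libraries also enter the estimate of spread in the DMSO fit, though not its difference.

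The ID and matrix genes kept their order under drug. ID3 averaged 350 RPKM in BT549 under EPZ015666, against 0.537 RPKM in MDAMB436 under EPZ015666 (difference 7.83). COL1A1 had a difference of 5.28, and MAGEA4 of -6.33 under drug. PRMT5 itself kept its direction, at -0.43, and WDR77 differed by 0.90. A single 2-fold gene, APOE, passed in the opposite direction, and it was named after its values were seen. APOE, a lipid carrier gene, had 2.97 and 2.88 RPKM in BT549 in DMSO, against 0.623 and 0.539 RPKM in MDAMB436 in DMSO, and averaged 1.01 RPKM in BT549 under drug, against 1.54 RPKM in MDAMB436 under drug (difference 1.31 in DMSO and -0.34 under drug).

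**Figure D5:**
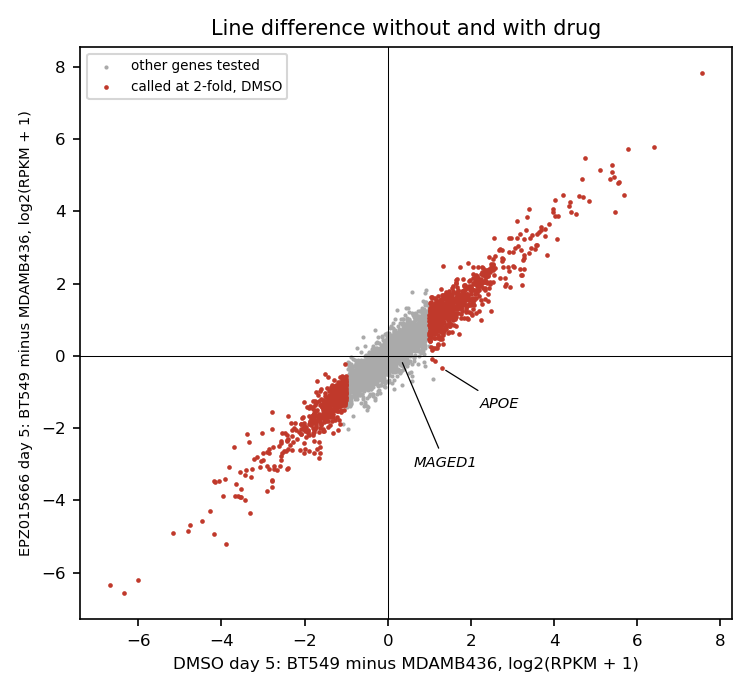
Difference of BT549 minus MDAMB436 in log2(RPKM + 1) in DMSO (horizontal) and under EPZ015666 (vertical), 1 point per gene tested in both. Red points were called at 2-fold in DMSO; 1293 of 1297 of them passed on the same side under drug, and APOE lies below 0. MAGED1, marked as well, had differences of 0.31 in DMSO and -0.08 under drug.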

How the data were processed

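Poly(A) RNA was extracted with a Qiagen kit and sequenced as stranded libraries, per the labels. The authors deposited RPKM for 16591 genes in 24 libraries. Reads were counted per gene with featureCounts on GRCh38, per the submitters' processing notes; no aligner and no versions are stated there. The deposited RPKM values gave whole reads in 99.84% of 222798 values tested, within 0.02 of a read, when the length was the whole span of the gene in GENCODE 29, so reads were recovered for 16559 genes and not for 32.

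Differences were fitted with limma 3.58.1 in R 4.3.3 on log2(RPKM + 1), with the trend option, over the 12 libraries (6 groups) of both lines, which share 1 estimate of spread. Genes with a mean of at least 1 RPKM in the 4 libraries compared were tested, with Benjamini-Hochberg adjustment and a threshold of 0.05. The pseudocount understates the difference of low genes. The recovered reads were fitted with limma-voom for genes of at least 1 CPM on average, scaled to the totals behind the RPKM; those fits are named where given. The script was tested on simulated data. Floors are 3 reads per library and cover counting error only.

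The members and the 52 gene lists (1328 members, 1082 in the table) were chosen with earlier results of these data known. Named genes included the 12 largest in each direction among genes past the threshold, with no overlap between the lines. These also had at least 5 RPKM in the higher line and a symbol that is not clone-based. The others were the 8 highest in each direction seen in 1 line only, up to 4 of smallest adjusted p per list, and 22 key genes. Other list members named were picked after their values were seen, to show exceptions and pathway parts: among them the SMAD genes, NOG, BAMBI, TGFBR1, GREM1, LOX, SDC1, SDC4, FOXA1, MSX1, MUC1, MDM2, BAX and MT-CYB. Some genes that the rule names are not reported here.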

Additional observations from a re-analysis of the deposited data

Results flagged for a closer look

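The line difference of MAGED1, a member of the MAGE family that is active in many tissues, was not the same with and without the drug. MAGED1 had 4.57 and 4.70 RPKM in BT549 in DMSO, against 3.62 and 3.45 RPKM in MDAMB436 in DMSO (difference 0.31). Under EPZ015666 it averaged 2.21 RPKM in BT549, against 2.39 RPKM in MDAMB436 (difference -0.08, limma adjusted p = 0.0748). The test of the difference between these 2 line differences gave -0.394 (EPZ015666 minus DMSO, limma interaction, adjusted p = 0.00188). Only named genes whose line difference turned sign were looked at for this flag, so it does not set MAGED1 apart from other genes. Of all genes called in DMSO, 102 passed in the opposite direction under drug.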

How the results depend on the processing

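The counts moved with the filter, the pseudocount and the model. Without the filter, 11397 genes were called, 1500 of them at 2-fold, with 911 list members and 9769 genes with the same direction under EPZ015666; at a mean of at least 5 RPKM these were 2146, 298 and 1847, with 706 genes at 2-fold and 29 windows of 72 past 0.5 in either direction. The recovered reads gave 10449 calls, 4839 at 2-fold, 894 list members and 9445 under EPZ015666, against 5478, 1355, 551 and 4773 in the fit as reported. A pseudocount of 0.1 gave 2049 calls at 2-fold. Genes seen in 1 line only were 274 with at most 10 reads in the other line and 35 with at least 5 RPKM, against 150. Leaving out single libraries gave 5174 to 5535 calls, 1333 to 1358 at 2-fold, 520 to 553 list members and 4537 to 4601 under EPZ015666.

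Scaling to recovered read totals, added after seeing the data, gave 5447 calls, of which 45% were higher in BT549 against 52.3% as reported; at 2-fold the share was 46.7% against 58.3%. Under it the medians of the mitosis, PRMT5 and reference gene lists, and of 1 signalling list, turned sign, BAX passed (-0.14, limma adjusted p = 0.018) and so did MT-CYB (-0.21, limma adjusted p = 0.0318).

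Whether the letters A and B pair the libraries across lines is not stated in the labels. The A minus B differences of the 2 lines correlated at -0.118 over genes, which cannot show whether the libraries were handled as pairs. With the letter as a replicate block 5430 genes were called, 1356 at 2-fold, with 546 list members and 4734 under EPZ015666. A crossed pairing, added after seeing the data, gave 5467 calls.

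Among the genes named by rule, 2 values reversed: EGFL7, an endothelial growth factor gene that did not pass, ran from -0.079 to 0.075 when single libraries were left out, with the sign turned without library A of BT549 (0.020) or library A of MDAMB436 (0.075). The call of EGFR was lost in 9 alternatives and that of CD44 in 2; in these 11 the direction held. The RPKM filter leaves out many genes with long spans, because their reads are divided by the whole span. Read depth limits genes of a few reads, whose size of difference rests on the pseudocount.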
